A study of Mus musculus with 141 samples.

Results

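Expression of the Sox, Tbx, Gata and Klf transcription factors was examined in liver, lung and kidney of 47 Collaborative Cross strains. The members are every gene whose symbol is Sox, Tbx, Gata or Klf followed by a number, which gave 55 of the 24423 genes in the files: 19 Sox, 13 Tbx, 6 Gata and 17 Klf genes. The Collaborative Cross is a panel of recombinant inbred mice that mixes the genomes of several founder strains, and its strains are named CC001, CC002 and so on. Each strain gave 1 male mouse aged 8 to 12 weeks, and each mouse gave 1 RNA-seq library per tissue, so that each tissue has 47 libraries. All mice sat in chambers with clear air for 6 hours a day on weekdays over 2 weeks, so the groups differ in tissue and strain but not in treatment. With 1 mouse per strain, the strain and the single animal cannot be told apart, and all tissues were whole frozen organs.

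These 4 families bind DNA in different ways. Sox proteins bend DNA through an HMG box, Tbx proteins bind as T-box factors, Gata proteins read GATA sites with a pair of zinc fingers, and Klf proteins read CACCC and GC boxes with zinc fingers at their C terminus. Most act in lineage choice during development, and several stay on in adult organs: Tbx2, Tbx4 and Tbx5 in lung mesenchyme, the SoxF genes with Klf2, Klf4 and Gata2 in endothelium, Gata6 in lung epithelium, and Klf15 in liver metabolism. Whole tissue holds many cell types, so a lower level cannot distinguish fewer expressing cells from less RNA per cell.

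Promoters are shown for 3 members described in detail below, the lung-high Klf2 and Klf4 and the liver-high Klf15, since Klf proteins themselves read the boxes marked in them. Each line gives the 250 bases before the RefSeq start (GRCm38.p6), 5′ to 3′ on the gene's strand, with capitals for the CACCC box (CACCC or GGGTG) and the GC box (GGGCGG or CCGCCC).
Klf2 (chr8:72318812-72319061, plus strand): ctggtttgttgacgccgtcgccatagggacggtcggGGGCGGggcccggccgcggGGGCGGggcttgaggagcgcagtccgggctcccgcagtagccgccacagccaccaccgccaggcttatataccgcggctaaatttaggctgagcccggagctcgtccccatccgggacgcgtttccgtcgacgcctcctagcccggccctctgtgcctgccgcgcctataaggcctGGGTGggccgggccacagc
Klf4 (chr4:55532476-55532725, minus strand): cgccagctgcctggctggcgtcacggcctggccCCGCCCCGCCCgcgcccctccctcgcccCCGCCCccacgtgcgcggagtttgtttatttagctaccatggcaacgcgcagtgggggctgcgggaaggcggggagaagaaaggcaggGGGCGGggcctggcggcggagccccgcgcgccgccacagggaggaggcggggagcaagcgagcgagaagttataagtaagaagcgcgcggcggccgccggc
Klf15 (chr6:90462326-90462575, plus strand): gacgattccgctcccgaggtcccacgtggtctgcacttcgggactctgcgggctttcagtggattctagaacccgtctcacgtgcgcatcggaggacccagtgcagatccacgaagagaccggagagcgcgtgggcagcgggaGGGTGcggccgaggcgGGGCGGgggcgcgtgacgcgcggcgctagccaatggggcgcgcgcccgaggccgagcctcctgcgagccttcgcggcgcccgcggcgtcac
The Klf2 and Klf15 stretches each hold 1 CACCC box and 2 and 1 GC boxes, and the Klf4 stretch holds 0 CACCC boxes and 4 GC boxes. Promoters were on hand for 39 members. At least 1 promoter held a CACCC box in 27 of them, against 52.01% of all 32851 promoters of that length. A GC box stood in 28 members and 32.7% of all promoters. The GATA motif AGATAA (or TTATCT) stood in 3 members and 9.99% of promoters, the SOX motif AACAAT (or ATTGTT) in 4 and 9.42%, and the T-box motif AGGTGTGA (or TCACACCT) in 0 and 1.12%. Gata2, Klf8, Sox6, Tbx1 and Tbx22 have more than 1 promoter in these counts, and a match is only a run of letters.

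Total counts per library ranged from 1738046 to 42158454, with medians of 10423382 in liver, 9338124 in lung and 8245850 in kidney. The deposited TPM (a share of the library's transcripts, scaled by length) was used to compare genes within a tissue, and library-scaled counts with TMM factors (CPM below) to compare libraries. This matters because a ribosomal RNA gene, Rn45s, took up to 58.4% of all TPM in a lung library (CC015, median 8.399%), which had the lowest TPM for 21 of the 34 members with a lung median over 1 TPM but the lowest CPM for 4. The lung library of CC037, at 3375073 counts, had the highest CPM for 14 of these 34. Genes of other tissues stood out in some libraries: keratin Krt4 reached 887 TPM in the CC041 liver (median 0.260), and muscle Myh2 115 TPM in the CC031 liver (median 0.220). Lung Krt4 reached 3425 TPM in CC035 and lung Krt13 1063 in CC042, and pancreatic lipase, Pnlip, reached 851 TPM in the CC068 liver.

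Klf genes carried most of the RNA of these families in every tissue. The summed level of the 17 Klf genes had a median of 329 TPM in liver, 1038 in lung and 404 in kidney, against 10.4 TPM in liver, 205 in lung and 35.9 in kidney for the Sox genes, 4.97 TPM in liver, 166 in lung and 23.9 in kidney for the Tbx genes and 3.28 TPM in liver, 103 in lung and 13.1 in kidney for the Gata genes, in deposited TPM. In liver the highest members were Klf15 at 140.2 TPM (43.9 to 293) and Klf9 at 83.6 TPM (17.96 to 159.9). Klf15 was above Klf9 in 46 of 47 livers and Klf9 above the next member, Klf3, in all 47, whereas Klf3, Klf10 and Klf12 had medians of 21.4, 20.5 and 20.1 TPM and kept no order (Klf3 above Klf10 in 23 of 47 strains, and Klf10 above Klf12 in 23). In kidney Klf9 at 152 TPM (61.03 to 229) was above Klf15 at 88.96 TPM (35.9 to 187) in 47 of 47 strains. In lung Klf6 led at 227 TPM (77.7 to 372) and was above Klf9 at 134 TPM (56.7 to 244) in 46 of 47 strains. Below these, lung Klf2 and Tbx2 had medians of 113 and 104 TPM, with Klf2 higher in 26 of 47 strains, so their order was not settled. At the other end, 14 members had 3 counts or fewer in every liver library, 15 in every kidney library and 6 in every lung library. The plot of levels shows all members in all tissues.

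**Figure D1:**
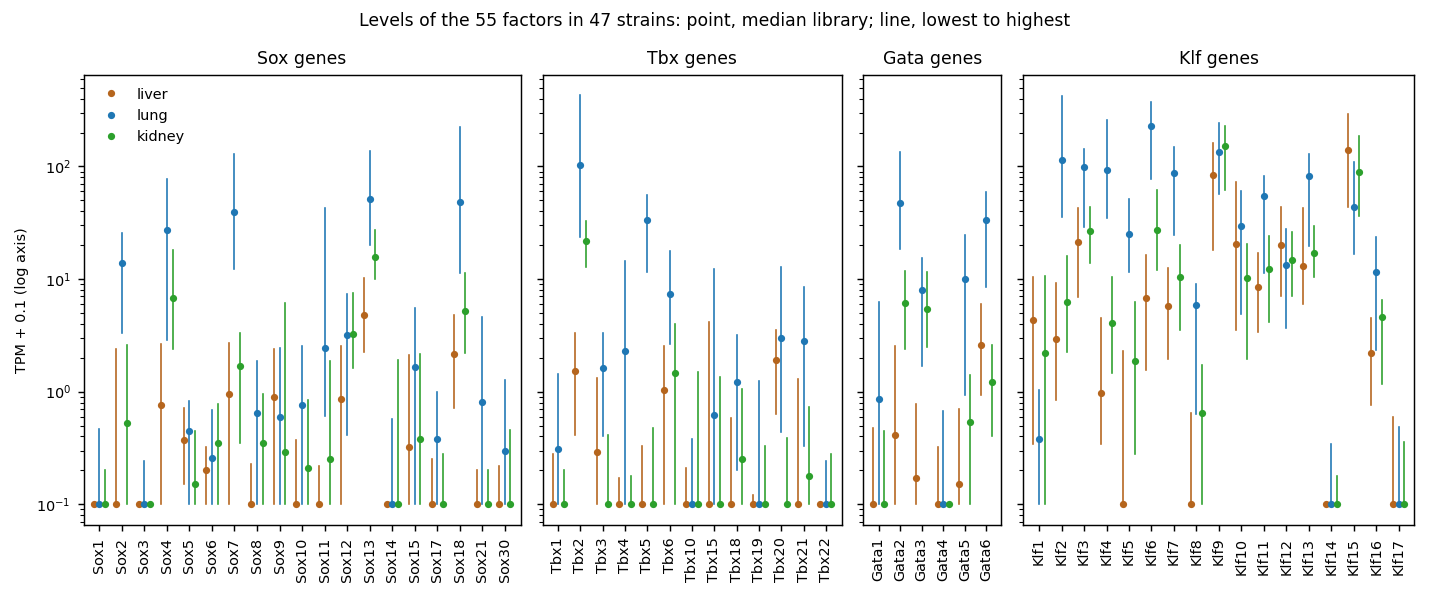
Deposited TPM plus 0.1 on a log axis for the 55 factors by family in liver, lung and kidney. Points are the median of 47 libraries and lines run from the lowest to the highest. Lung points lie above both other tissues for most Sox, Tbx and Gata genes, whereas Klf9 and Klf15 are high in all tissues.

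The filter on low counts (over 1 CPM in at least 30% of libraries) kept 33 of the 55 members among 12127 genes: 8 Sox, 6 Tbx, 4 Gata and 15 Klf genes. The filter can be met through a single tissue, and 9 of the 33 had a median over 1 CPM in 1 tissue alone. In lung these were 8 members: Gata5, Klf8, Sox2, Sox11, Tbx3, Tbx5, Tbx6 and Tbx18. In liver it was Sox9. These 9 had to differ, so their differences are a description, and the counts that follow describe the tested members only. In liver against lung, 22 of 33 were higher in lung (31.03% of all genes tested) and 5 in liver (23.9% of all genes) at q, the Benjamini-Hochberg adjusted p of limma-voom, of 0.1 or less and at least a 2-fold change. In lung against kidney, 24 were higher in lung (25.5% of all genes) and 2 in kidney (20.6%). In liver against kidney, 8 were higher in liver (15.6%) and 13 in kidney (20.8%). Above both other tissues stood 21 members in lung (19.5% of all genes), 5 in liver (9.87%) and 0 in kidney (7.60%). Median log2 fold changes of the 33 were -2.53 for liver against lung (all genes -0.06), 1.93 for lung against kidney (all genes 0.04) and -0.06 for liver against kidney (all genes -0.00). With total counts in place of TMM the split became 26 against 2 for lung and liver, 16 against 4 for kidney and liver, and 27 against 2 for lung and kidney, and with log2(TPM + 1) it became 26 against 2, 10 against 1 and 25 against 2. The share of all genes called is not given for these scalings. Total counts put the median of all genes at -1.44, -0.95 and 0.46 for liver against lung, liver against kidney and lung against kidney. Before taking off those medians, 26, 21 and 26 of the 27, 21 and 26 called members kept their direction with total counts. After it all did, but taking off the median nearly restores the TMM values, so this is not a separate check. Under log2(TPM + 1), 26, 21 and 26 kept their direction before taking off its own medians and 25, 16 and 26 after.

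Lung libraries often did not overlap those of the other tissues at all. In 17 members every lung library was above every liver library (12.1% of all genes), and in 3, Klf1, Klf12 and Klf15, every liver library was above every lung library (13.98%). Lung lay wholly above kidney in 16 members (10.1%), and kidney above lung in 0 (12.5%). Both lung counts include Gata5, Sox2 and Tbx5, which passed the filter through lung alone, so that part is a description. Between liver and kidney 1 member, Tbx20, was wholly higher in liver (6.28%) and 2, Gata3 and Tbx2, in kidney (6.92%). Within strains, 19 members were higher in lung than liver in all 47 (21.6% of all genes) and 3 higher in liver (20.9%). Likewise 20 were higher in lung than kidney (19.5%) and 1, Klf15, in kidney (19.8%), while 5 were higher in liver than kidney (11.9%) and 3 in kidney (13.3%). Of the 19, Gata5, Klf8, Sox2, Sox11, Tbx5 and Tbx18 passed the filter through lung alone. Of the 20, Gata5, Klf8, Sox2, Tbx3, Tbx5 and Tbx6 did.

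**Figure D2:**
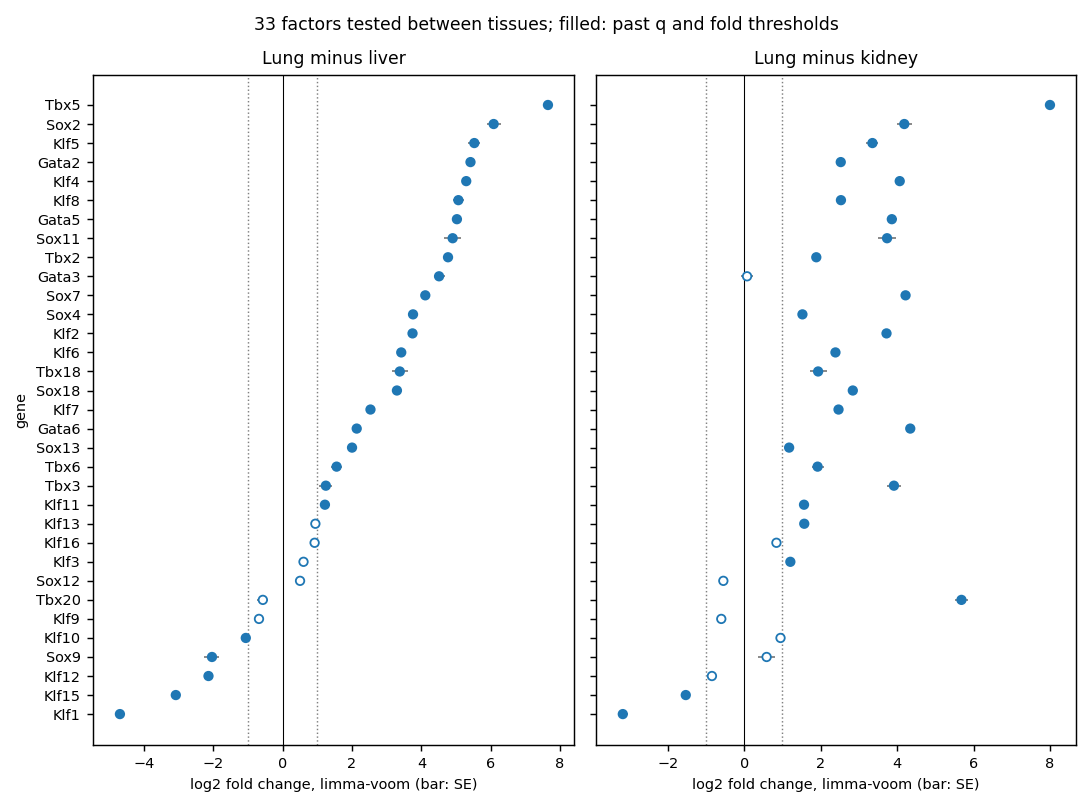
Log2 fold changes from limma-voom with standard errors for the 33 factors tested, lung minus liver on the left and lung minus kidney on the right, with dotted lines at the 2-fold threshold and filled points past both thresholds. Tbx5, which passed the filter through lung alone, lies farthest to the lung side in both panels (7.65 and 8.00). Klf1 and Klf15 lie on the other side in both.

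The Klf genes that mainly activate transcription (Klf1, Klf2, Klf4, Klf5, Klf6 and Klf7) were lung-high with the exception of Klf1. Klf2 (chr8:74842932-74845555 in mm9, the build of all gene positions below), which keeps endothelium quiescent and is induced by blood flow, ranged over 14.9 to 156 CPM (median 45.5) in lung, 0.837 to 8.42 CPM (median 3.47) in liver and 1.23 to 7.31 CPM (median 3.42) in kidney. Every lung library was above every other, and the highest without CC037 was 77.9 CPM. The highest liver was CC006, and the next was at 7.65 CPM. Lung exceeded both liver (log2 fold change 3.74, SE 0.09, q = 1.9e-63) and kidney (log2 fold change 3.72, SE 0.09, q = 1.1e-63), and liver and kidney did not differ detectably (log2 fold change -0.02, liver minus kidney, SE 0.09, q = 0.814). Klf4 (chr4:55540013-55545347), a factor of barrier epithelia and endothelium, ranged over 24.7 to 133 CPM (median 65.8) in lung, 1.76 to 8.05 CPM (median 4.16) in kidney and 0.444 to 7.01 CPM (median 1.74) in liver, where CC041 was the highest and the next was at 4.68 CPM. Lung again lay wholly above (log2 fold change 5.29, SE 0.08, q = 5.6e-83 against liver and log2 fold change 4.07, SE 0.07, q = 1.1e-75 against kidney), and kidney was above liver in 45 of 47 strains (log2 fold change 1.23, SE 0.08, q = 7.6e-29).

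Klf6 (chr13:5860735-5869639), an immediate-early factor found in many cell types, reached 151 to 286 CPM (median 195) in lung, 25.2 to 91.7 CPM (median 35.8) in kidney and 10.3 to 59.1 CPM (median 17.7) in liver. The order lung, kidney, liver held (log2 fold change 2.39, SE 0.05, q = 3.7e-65 for lung over kidney, and log2 fold change 1.03, SE 0.05, q = 1.1e-33 for kidney over liver). Klf7 was at 14.998 to 34.2 CPM (median 25.2) in lung and at medians of 4.57 CPM in liver and 4.57 in kidney, with lung wholly above both. Klf5, known from epithelial progenitors, was at 5.07 to 19.9 CPM (median 9.76) in lung and 0.0935 to 4.85 CPM (median 0.882) in kidney, and 43 of 47 livers had 3 counts or fewer. Its highest liver, 1.95 CPM, was the CC041 library with high keratins, and the next was 1.03.

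Klf1, named for its role in red cell precursors, went the other way. It ranged over 0.372 to 8.504 CPM (median 4.17) in liver, 0 to 4.88 CPM (median 1.097) in kidney and 0 to 0.302 CPM (median 0.0939) in lung, where 38 of 47 libraries had 3 counts or fewer. Liver exceeded lung in all strains (log2 fold change 4.70, SE 0.13, q = 1.7e-56) and kidney in 46 of 47 (log2 fold change 1.52, SE 0.12, q = 5.0e-21), a difference that was under 2-fold with total counts (log2 fold change 0.58).

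Klf15 (chr6:90412570-90425232), a regulator of gluconeogenesis and amino acid breakdown, was the member with the highest liver level. It ranged over 108 to 402 CPM (median 196) in liver, 30.1 to 109.8 CPM (median 67.01) in kidney and 9.49 to 49.8 CPM (median 21.5) in lung. Every liver was above every lung (log2 fold change 3.09, SE 0.07, q = 1.4e-66), and within each of the 47 strains liver was above kidney (log2 fold change 1.56, SE 0.07, q = 8.5e-41) and kidney above lung (log2 fold change 1.53, SE 0.07, q = 5.8e-40). The liver and kidney difference was under 2-fold with total counts (log2 fold change 0.62) and with log2(TPM + 1) (0.59). Among the repressors that recruit CtBP, Klf12 was also liver-high, at 35.3 to 124 CPM (median 76.3) against 9.25 to 25.9 CPM (median 16.02) in lung (log2 fold change 2.14, SE 0.07, q = 9.6e-53), and was above kidney in all 47 strains (log2 fold change 1.30, SE 0.07, q = 9.3e-35). Both differences of Klf12 stayed under 2-fold with total counts (log2 fold changes 0.77 and 0.35) and with log2(TPM + 1) (0.61 and 0.31). Klf8 of the same group was lung-high, at 1.28 to 10.2 CPM (median 5.505), with 46 of 47 livers at 3 counts or fewer and a kidney median of 0.821 CPM. Klf3, the third CtBP partner, had medians of 30.5, 46.6 and 20.7 CPM in liver, lung and kidney. It passed both thresholds only for lung over kidney (log2 fold change 1.21, SE 0.06, q = 3.4e-38).

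The Klf genes that recruit the Sin3 corepressor varied in pattern. Klf9, which glucocorticoids induce, ranged over 83.5 to 314 CPM (median 160.2) in liver, 104 to 237 CPM (median 151) in kidney and 62.2 to 198 CPM (median 101) in lung, and none of its comparisons reached a 2-fold change. Lung was below liver by a log2 value of 0.69 and below kidney by 0.60 on the TMM scale, but the liver and lung difference turned to 0.68 toward lung with total counts. Klf10, a TGF-beta early response gene, ranged over 9.65 to 127 CPM (median 39.5) in liver, 7.65 to 34.5 CPM (median 19.3) in lung and 3.93 to 18.1 CPM (median 10.6) in kidney. Liver was above kidney in all 47 strains (log2 fold change 2.02, SE 0.12, q = 6.7e-31; 0.98 with total counts), while its excess over lung in 36 of 47 strains (log2 fold change 1.07, SE 0.12, q = 8.6e-15) turned to -0.35 with total counts. Klf11 was lung-high against liver (log2 fold change 1.22, SE 0.05, q = 3.8e-41) and kidney (log2 fold change 1.56, SE 0.05, q = 3.6e-50), with no overlap of its lung values, 36.1 to 56.98 CPM (median 44.7), with either tissue. Klf13 passed only for lung over kidney (log2 fold change 1.57, SE 0.07, q = 2.5e-40), and its highest liver (126 CPM, next 104) was CC068, the liver with the highest Pnlip. Klf16 passed the fold threshold in no comparison.

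**Figure D3:**
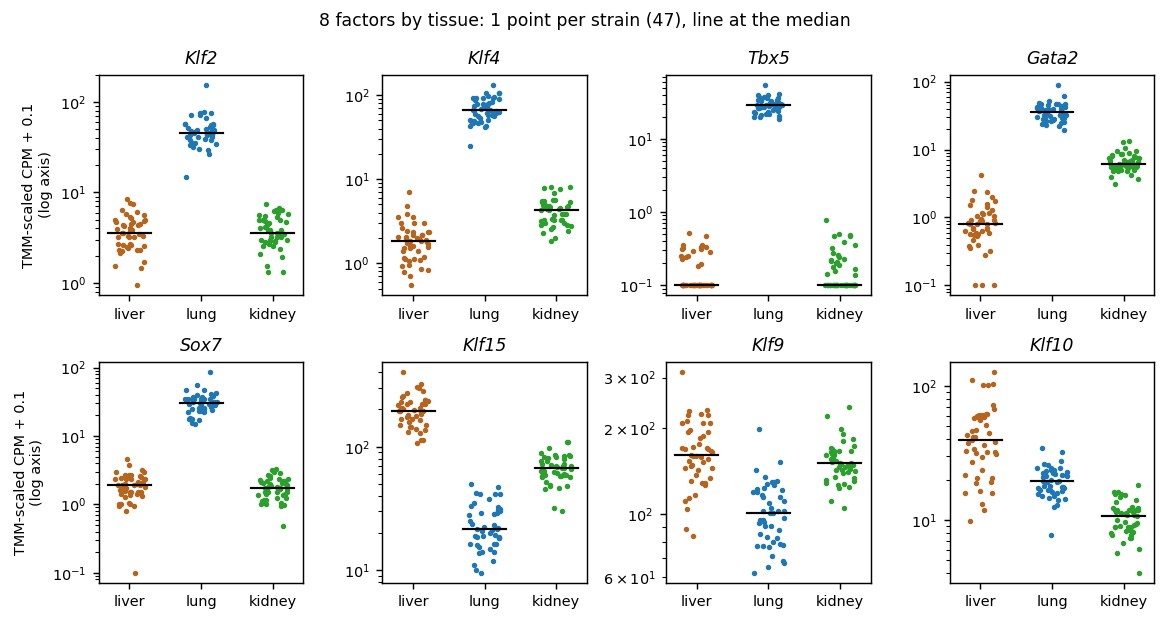
TMM-scaled CPM plus 0.1 on log axes for 8 factors, with 1 point per strain and a line at the median of the 47 libraries of a tissue. Lung points of Klf2, Klf4, Tbx5, Gata2 and Sox7 form a band above all others, Klf15 falls from liver to kidney to lung, and Klf9 and Klf10 overlap.

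All 4 tested Gata genes were higher in lung than in liver. Gata2 (chr6:88143885-88157024), needed in blood stem cells, mast cells and endothelium, ranged over 19.6 to 90.4 CPM (median 35.9) in lung, 3.03 to 13.1 CPM (median 6.099) in kidney and 0 to 4.12 CPM (median 0.709) in liver, so lung overlapped neither tissue. The highest liver, CC006, also had the highest adrenal and adipose sums of the livers, and the next liver was at 2.33 CPM. In 22 of 47 livers Gata2 had 3 counts or fewer. Lung exceeded liver (log2 fold change 5.42, SE 0.10, q = 4.6e-75) and kidney (log2 fold change 2.52, SE 0.08, q = 5.7e-51). Gata3, a factor of T cells, type 2 innate lymphocytes and the collecting duct of the kidney, was at 1.98 to 9.63 CPM (median 5.57) in lung and 2.76 to 13.3 CPM (median 5.16) in kidney, which did not differ detectably (log2 fold change 0.07, SE 0.15, q = 0.636). Liver was at 3 counts or fewer in 41 of 47 libraries and lay wholly below both. Exons of Gata3 overlap other annotated genes in GENCODE vM1, as do those of Gata5, Gata6, Klf7, Tbx3, Sox4, Sox5, Sox15 and Sox21, and whether counting used strand is not given in the sources used here.

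Gata6, a factor of lung epithelium and of endoderm, was at 15.4 to 39.2 CPM (median 22.7) in lung, 2.42 to 10.6 CPM (median 5.12) in liver and 0.287 to 2.799 CPM (median 1.07) in kidney. Lung was above liver (log2 fold change 2.13, SE 0.07, q = 3.2e-52) and liver above kidney in all 47 strains (log2 fold change 2.21, SE 0.07, q = 4.1e-51). Gata5 followed at 2.39 to 14.8 CPM (median 7.4) in lung, with medians of 0.452 CPM in kidney and 0.0868 in liver, and passed the filter through lung alone. Gata4 had at most 5 counts in any library. It is 1 of 11 members with several transcripts in the files, of which Klf10, Tbx3 and Tbx20 were tested. A median over 1 TPM in lung was reached by 57.7% of genes with a single transcript and 30.7% of genes with more.

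Of the 8 tested Sox genes, Sox2, Sox4, Sox7, Sox11, Sox13 and Sox18 were lung-high, and Sox2 and Sox11 passed the filter through lung alone. Sox7 and Sox18, SoxF factors of blood and lymph vessels, ranged over 14.96 to 86.4 CPM (median 30.2) and 8.74 to 73.04 CPM (median 16.9) in lung. In liver they ranged over 0 to 4.51 CPM (median 1.8) and 0.683 to 5.51 CPM (median 2.03), and in kidney over 0.376 to 3.22 CPM (median 1.63) and 1.0003 to 7.52 CPM (median 2.77). For both, every lung library was above every other (log2 fold change 4.11, SE 0.08, q = 1.0e-72 against liver for Sox7, and log2 fold change 3.29, SE 0.10, q = 3.8e-53 for Sox18), and without CC037 the highest lung values were 54.6 and 33.3 CPM. Endothelial marker genes had summed TPM medians of 53.1 in liver (18.9 to 75.3) and 867 in lung (192 to 1376) and 81.6 in kidney (35.6 to 117), which Cdh5 and Kdr carried, whereas Emcn had medians of 2.25 TPM in lung and 2.83 in kidney, and Pecam1 and Tek of 4.15 and 1.19 in lung. Their part in these levels was not tested. The third SoxF gene, Sox17, also has several transcripts and reached 13 counts at most, in lung.

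Sox4, a SoxC factor of progenitors and wound response, fell from 7.17 to 47.2 CPM (median 17.04) in lung to 2.81 to 18.7 CPM (median 6.36) in kidney and 0 to 5.77 CPM (median 1.21) in liver. The log2 fold changes were 1.52 (SE 0.09, q = 8.3e-31) for lung over kidney and 2.24 (SE 0.10, q = 5.3e-41) for kidney over liver. Sox11 of the same group was at 1.37 to 63.8 CPM (median 4.43) in lung, with 45 of 47 livers and 21 of 47 kidneys at 3 counts or fewer. Sox12 had medians of 2.397, 3.33 and 4.75 CPM in liver, lung and kidney, and passed only for kidney over liver (log2 fold change 1.05, SE 0.10, q = 9.3e-17). Sox2 (chr3:34548927-34551383), a factor of airway basal cells, was at 3.08 to 18.5 CPM (median 7.16) in lung and at a median of 0.376 CPM in kidney. In liver 46 of 47 libraries had 3 counts or fewer. The exception, at 2.92 CPM, was CC041, the liver with high keratins, and the next highest liver was at 0.222. Sox13, a SoxD factor, had the highest median TPM of the Sox genes, at 51.6 in lung, 15.6 in kidney and 4.67 in liver.

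Sox9, which marks bile duct cells in liver, passed the filter through liver alone, so its tissue differences are given as a description. It was at 0 to 5.47 CPM (median 2.05) in liver, 0 to 2.28 CPM (median 0.417) in lung and a median of 0.231 CPM in kidney. For liver over lung the log2 fold change was 2.04 on the TMM scale, 0.75 with total counts and 0.24 with log2(TPM + 1). The kidney of CC020 stood apart at 8.71 CPM, with the next kidney at 1.17. That library also had the highest kidney Sox4 (18.7 CPM, next 10.1), Sox11 (5.29, next 1.505) and Klf6 (91.7, next 58.4). It had the highest sums of any kidney for 3 marker lists too. These were T and NK cell genes (11.8 TPM, median 1.71), megakaryocyte genes (26.3, median 5.64) and the keratins Krt4, Krt13, Krt5 and Krt15 (19.4, median 2.29). Pf4 alone made up 26.05 TPM of the megakaryocyte sum, and the highest kidneys for Itga2b and Gp9 were CC068 and CC038. Cd4 (6.95 TPM) and Cd3e (4.43) carried most of the T and NK cell sum. The highest kidneys for Ncr1 and Prf1 were CC013 and CC007. Whether any of these bears on the Sox and Klf6 levels was not tested.

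Tbx5 (chr5:120284672-120335227), a factor of heart, forelimb and lung mesenchyme, gave the largest difference of the 33 tested members. Tbx5 passed the filter through lung alone, so this difference is given as a description. It was at 18.8 to 54.97 CPM (median 28.8) in lung, while all 47 livers and 44 of 47 kidneys had 3 counts or fewer. Against the level of 3 counts in the paired liver the lung was at least 52.3-fold higher (median over strains), and the fitted log2 values of 7.65 against liver and 8.00 against kidney rest on the counts voom adds to such libraries. Tbx2 (chr11:85646053-85655450), a repressor that works with Tbx3 in lung mesenchyme, was at 40.5 to 318 CPM (median 84.6) in lung, 13.8 to 39.6 CPM (median 24.6) in kidney and 1.26 to 11.9 CPM (median 3.34) in liver, and without CC037 the highest lung was 151. Lung exceeded kidney in all strains (log2 fold change 1.88, SE 0.09, q = 1.5e-38), and kidney lay wholly above liver (log2 fold change 2.88, SE 0.09, q = 1.6e-50). Tbx3 was present in lung at 0.243 to 3.96 CPM (median 1.63) and in liver at 0 to 3.72 CPM (median 0.584), and all kidneys had 3 counts or fewer. Against 3 counts in the paired kidney, lung was at least 4.26-fold higher (median over strains).

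Tbx20 (chr9:24527648-24578746), a factor of heart muscle, was detected in liver and lung but hardly in kidney. It ranged over 2.22 to 17.01 CPM (median 6.62) in liver and 0.859 to 15.6 CPM (median 4.35) in lung, whereas all 47 kidneys had 3 counts or fewer. Against that level in the paired kidney, liver was at least 20.8-fold and lung at least 12.8-fold higher (medians over strains). Liver and lung overlapped, and the small excess in liver, present in 33 of 47 strains (log2 fold change 0.58, SE 0.16, q = 4.3e-04), turned to -0.70 with total counts. Tbx6, known from paraxial mesoderm, was at medians of 0.937, 2.72 and 0.856 CPM in liver, lung and kidney, with lung above kidney in all strains. Tbx18, a mark of pericytes and of mesothelium, had a lung median of 1.25 CPM, with 46 of 47 livers and 32 of 47 kidneys at 3 counts or fewer.

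Of the 22 members under the filter, 8 never exceeded 10 counts: Gata4, Klf14, Klf17, Sox1, Sox3, Sox30, Tbx10 and Tbx22. The other 14 did so in at least 1 library. Tbx4, a lung mesenchyme factor, exceeded 10 counts in 35 of 47 lungs, ranged over 0 to 7.24 CPM (median 1.74) there and reached 1 count at most in liver and in kidney. Tbx21, which directs type 1 immunity in T and NK cells, exceeded 10 counts in 32 lungs, where it ranged over 0.173 to 5.63 CPM (median 1.43). Tbx15, Sox21 and Gata1 did so in 21, 14 and 7 lungs, with highest values of 9.18, 4.01 and 2.26 CPM. Sox10 and Sox8 exceeded 10 counts in 9 and 7 lungs, Sox15 in 7, Sox17 in 2, and Tbx1 and Tbx19 in 1 each.

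Sox5, Sox6, Sox14 and Tbx15 of these low members were also found outside lung. Sox5 exceeded 10 counts in 12 livers and 14 lungs but 1 kidney, and Sox6 in 14 kidneys, 3 livers and 4 lungs, and both have several transcripts. Sox14 appeared in kidney: 40 of 47 kidneys had 3 counts or fewer, yet CC046 had 24 counts and CC005 had 15, while no liver had any. Tbx15 appeared in 6 livers over 10 counts, led by CC031 at 13.7 CPM and CC041 at 4.48, against a median of 0.

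Genes related to these families but outside the rule moved in several directions. Of the other T-box genes Eomes, Tbr1, T and Mga, only Mga was tested, and it passed in no comparison. Of 9 Sp factors, the nearest relatives of the Klf genes, 3 were tested (Sp1, Sp3 and Sp5): 0 passed in liver against lung, 1 was higher in kidney than liver (Sp5), and lung against kidney gave 1 in each direction. Among cofactors, the Gata partner Zfpm1 was higher in liver than in lung (log2 fold change 1.75, q = 1.2e-24) and kidney (3.58, q = 2.7e-47), and higher in lung than in kidney (1.83, q = 3.9e-25). Zfpm2, its relative, was higher in lung than in liver (log2 fold change 1.54, q = 1.1e-25) and kidney (1.92, q = 2.5e-32). The Klf corepressor Ctbp2 was lower in liver than in lung (log2 fold change -3.14, q = 3.9e-52) and kidney (-2.19, q = 1.1e-38). Ldb1 and Sin3b passed both thresholds in no comparison.

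Spread across strains was described by the biological coefficient of variation (BCV), the part of a gene's variation beyond counting noise. Over the members it had a median of 35.2% in liver (23 members), 31.2% in lung (37) and 26.3% in kidney (26), against 24.1%, 23.6% and 22.9% over all genes. The genes behind these medians were not matched for expression level. In lung the widest were Tbx15 at 135%, Sox11 at 85.6% and Sox21 at 75.97%. Lung Sox11 reached 63.8 CPM in CC033, 34.5 in CC036 and 26.3 in CC057, against a median of 4.43. In liver the widest were Klf1 (61.2%), Klf10 (56.8%) and Sox4 (52.05%), and in kidney Klf1 (72.05%), Klf5 (57.9%) and Klf8 (42.9%). Liver Klf10 exceeded 100 CPM in 5 livers, led by CC012 at 127, with 313 to 1395 counts in these 5 libraries. The narrowest lung members were Klf11 at 12.5% and Klf6 at 15.5%.

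Whether a strain that is high for a factor in 1 tissue is also high in another was examined for members over 1 TPM in more than 50% of libraries of both tissues, as Pearson's r of rank-normalized values over 47 strains. In liver and kidney 6 of 16 members were positively correlated at q of 0.1 or less, against 23.1% of all genes. In lung and kidney 4 of 23 were (17.03% of all genes), and in liver and lung 1 of 16 (13.2% of all genes). All that passed were Klf genes, which were also most of the members examined in each pair. In liver and kidney the others examined were only Gata6, Sox13, Sox18 and Tbx2. With a negative r 0 members passed, against 0.340%, 0.436% and 0.438% of all genes in liver and lung, liver and kidney, and lung and kidney. Without CC032 and CC042, 1 did in liver and lung and 1 in lung and kidney. With log2(TMM-scaled TPM + 1), 1 did in liver and lung. In all 55 values of r were computed, and q is adjusted over all genes of the tissue pair. Strain and animal cannot be told apart here. The authors' models held a term for sequencing batch, but the labels give no batches, so none was fitted here. Whether batch bears on these correlations was not tested.

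Klf15 was the member that passed in all 3 tissue pairs. Liver and lung gave r = 0.62 (permutation p = 1e-05, q = 2.5e-04 over all genes), rho = 0.65 (permutation p = 1e-05) and r = 0.56 with the 2 most extreme strains left out. Liver and kidney gave r = 0.45 (permutation p = 0.00138, q = 0.0139 over all genes), rho = 0.46 (permutation p = 0.00128) and r = 0.39 with the 2 most extreme strains left out. Lung and kidney gave r = 0.53 (permutation p = 1.1e-04, q = 0.00356 over all genes), rho = 0.55 (permutation p = 1.1e-04) and r = 0.50 with the 2 most extreme strains left out. Strains with a high Klf15 value in liver tended to have a high value in the other organs, although lung levels were lower. Klf9, Klf13 and Klf6 passed in liver and kidney and in lung and kidney. For Klf13 in liver and kidney, r = 0.46 (permutation p = 0.00111, q = 0.0126 over all genes), rho = 0.51 (permutation p = 3.0e-04) and r = 0.44 with the 2 most extreme strains left out. For Klf9 in lung and kidney, r = 0.44 (permutation p = 0.00175, q = 0.0208 over all genes), rho = 0.38 (permutation p = 0.00905) and r = 0.30 with the 2 most extreme strains left out. Klf6 gave r of 0.36 in liver and kidney (permutation p = 0.0124) and 0.42 in lung and kidney (permutation p = 0.00364).

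Klf1 and Klf11 also passed in liver and kidney, the only pair in which Klf1 could be examined. For Klf1, r = 0.58 (permutation p = 3.0e-05, q = 7.3e-04 over all genes), rho = 0.64 (permutation p = 1e-05) and r = 0.61 with the 2 most extreme strains left out. For Klf11, r = 0.45 (permutation p = 0.00184, q = 0.0159 over all genes), rho = 0.44 (permutation p = 0.00239) and r = 0.39 with the 2 most extreme strains left out, whereas its r was -0.10 in liver and lung and 0.13 in lung and kidney. Whether these differ between pairs was not tested. Vessel and mesenchyme factors did not pass: Sox7 and Klf4 each gave 0.30 in lung and kidney, Sox18 gave -0.03, 0.17 and -0.080 and Tbx2 -0.04, 0.18 and 0.04 in liver and lung, liver and kidney, and lung and kidney. Gata6 gave 0.06, 0.08 and -0.19 in the same order. On deposited TPM without TMM the numbers passing fell to 0, 2 and 0 for liver and lung, liver and kidney, and lung and kidney. Over all genes the positive numbers fell too, in the same order from 1120 to 128 of 8517, 1961 to 1281 of 8483 and 1713 to 407 of 10057.

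**Figure D4:**
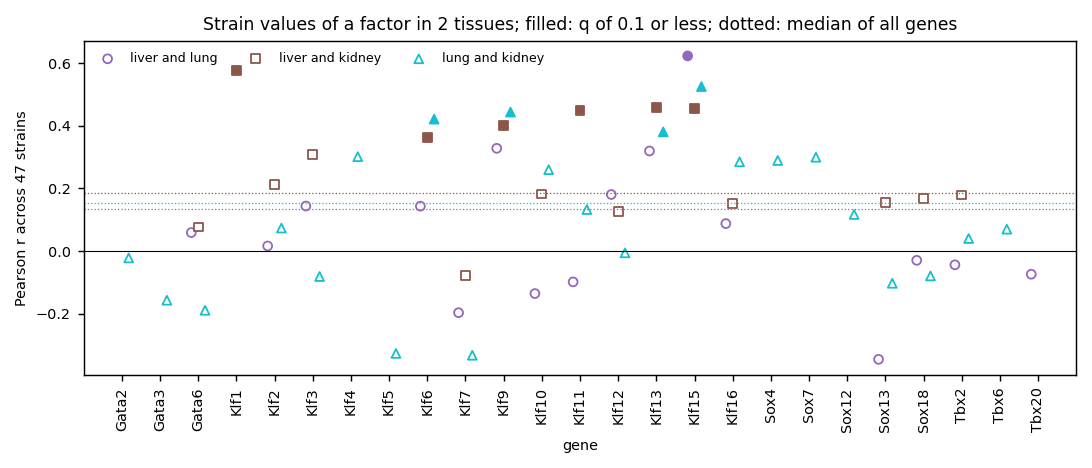
Pearson's r of rank-normalized strain values of a factor in 2 tissues, with 1 marker per tissue pair, filled where q was 0.1 or less, and dotted lines at the median of all genes of that pair. Filled markers lie over Klf1, Klf6, Klf9, Klf11, Klf13 and Klf15 only, and Klf15 is filled for all 3 pairs.

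Members were compared with summed marker genes of cell types across the 47 strains of a tissue, with Benjamini-Hochberg adjusted p over 18 relations, of which 3 are not reported here. In lung, Tbx20 followed heart muscle genes: with Myh6, Actc1, Tnnt2, Tnni3 and Myl7, r = 0.88 with permutation p = 1e-05 and adjusted p = 9.0e-05, rho = 0.88 with permutation p = 1e-05, and r = 0.85 with the 2 most extreme strains left out. Their summed TPM had medians of 1.58 in liver (0 to 27.97) and 945 in lung (144 to 2840.0) and 2.25 in kidney (0 to 12.7), made up in lung by Actc1, Tnni3 and Myl7, since lung Myh6 and Tnnt2 had medians of 0.110 and 0 TPM, while liver Tbx20 had a median of 6.62 CPM. Tbx21 followed T and NK cell genes, with r = 0.76 with permutation p = 1e-05 and adjusted p = 9.0e-05, rho = 0.71 with permutation p = 1e-05, and r = 0.73 with the 2 most extreme strains left out. Gata3, which T cells also use, did not, with r = -0.13 with permutation p = 0.405 and adjusted p = 0.56, rho = -0.16 with permutation p = 0.279, and r = -0.06 with the 2 most extreme strains left out.

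Of the vessel factors in lung, Sox18 followed the endothelial sum with r = 0.56 with permutation p = 4.0e-05 and adjusted p = 2.4e-04, rho = 0.57 with permutation p = 5.0e-05, and r = 0.56 with the 2 most extreme strains left out. Sox7 gave r = 0.53 with permutation p = 1.2e-04 and adjusted p = 5.4e-04, rho = 0.53 with permutation p = 1.1e-04, and r = 0.53 with the 2 most extreme strains left out, and Gata2 gave r = 0.48 with permutation p = 6.8e-04 and adjusted p = 0.00204, rho = 0.51 with permutation p = 3.3e-04, and r = 0.51 with the 2 most extreme strains left out. Klf2 and Klf4 gave r of 0.26 (permutation p = 0.081) and 0.07 (permutation p = 0.637), which did not pass. Tbx2 followed the lung mesenchyme genes Wnt2, Tcf21 and Fgf10 with r = 0.48 with permutation p = 5.5e-04 and adjusted p = 0.00198, rho = 0.43 with permutation p = 0.00256, and r = 0.44 with the 2 most extreme strains left out, and Tbx4 with r = 0.44 with permutation p = 0.0021 and adjusted p = 0.0054, rho = 0.41 with permutation p = 0.00456, and r = 0.44 with the 2 most extreme strains left out. Tbx5 gave r = 0.20 (permutation p = 0.179) with the same genes. Tcf21 carried most of this sum, with a lung median of 121 TPM against 33.6 for Wnt2 and 10.05 for Fgf10. Sox2 and the airway sum gave r = 0.30 (permutation p = 0.0389, adjusted p = 0.0875). Scgb1a1 carried that sum, with a lung median of 61079 TPM against 2361 for Cyp2f2 and 51.5 for Foxj1. Gata1 with megakaryocyte genes (r = 0.16, permutation p = 0.279) and kidney Gata3 and Tbx2 with distal nephron genes (0.03 and 0.04, permutation p = 0.832 and 0.787) did not pass. Calb1 and Aqp2 made up most of the distal nephron sum, with kidney medians of 179 and 109.6 TPM.

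Tbx15 (chr3:99044304-99158182), a factor of fast skeletal muscle and limb mesenchyme, followed skeletal muscle genes, a list chosen after its values were seen and so given without a test. In lung it ranged over 0 to 9.18 CPM (median 0.433), with 8 muscle genes summing to 12.4 to 2344 TPM, and r was 0.85 over 47 lungs and 0.84 with the 2 most extreme strains left out. In liver r was 0.79, and the highest liver for Tbx15, CC031, was also the highest for the muscle sum, at 1029 TPM against a median of 31.6. In kidney the muscle sum was at most 5.39 TPM and Tbx15 had a median of 0. The part of such tissue in these levels was not tested.

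**Figure D5:**
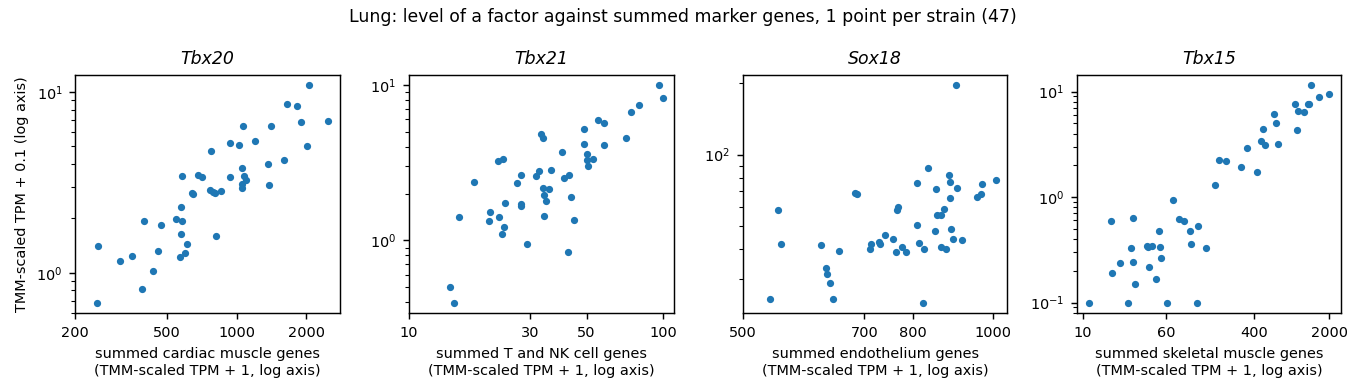
TMM-scaled TPM plus 0.1 of a factor against the summed TMM-scaled TPM plus 1 of marker genes in lung, both on log axes, with 1 point per strain. Tbx20 rises with heart muscle genes (r = 0.88), Tbx21 with T and NK cell genes (0.76), Sox18 with endothelial genes (0.56) and Tbx15 with skeletal muscle genes (0.85).

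The labelled tissues held their own markers. Medians of summed TPM were 346 in kidney, 116 in lung and 80106 in liver for hepatocyte genes, 91269 in kidney, 143 in lung and 61.9 in liver for proximal tubule genes and 16.8 in kidney, 22160.1 in lung and 22.1 in liver for alveolar genes. Distal nephron genes stood at 302 in kidney, 1.45 in lung and 0.350 in liver, and podocyte genes, of which Podxl is also endothelial, at 125 in kidney, 246 in lung and 4.3 in liver. Airway genes were at 41.95 in kidney, 63864 in lung and 1392 in liver, and their liver level came mostly from Cyp2f2, which hepatocytes also use. Lung held the highest medians for mesenchyme genes (23.5 in kidney, 164 in lung and 8.7 in liver), T and NK cell genes (1.71 in kidney, 37.5 in lung and 1.73 in liver), megakaryocyte genes (5.64 in kidney, 52.3 in lung and 3.25 in liver) and mast cell genes (0.0900 in kidney, 8.25 in lung and 0 in liver). Cartilage genes were at 0 in kidney, 0.180 in lung and 0 in liver. Adrenal genes were at 4.46 in kidney, 10.1 in lung and 2.09 in liver and adipose genes at 46.6 in kidney, 27.04 in lung and 0.670 in liver, with the highest liver of both in CC006. What part these cell types have in the tissue differences of the factors was not tested.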

How the data were processed

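RNA was measured in whole-tissue libraries of liver, lung and kidney of 47 strains, ribosome-depleted and sequenced as 50-base single reads. The authors aligned reads with STAR (2.5.3a in the submitters' processing notes) to strain-specific versions of mouse Build37 (mm9) and quantified genes with RSEM, keeping uniquely aligned reads. The expected count deposited per gene is an estimated count of reads, and 25 values were not whole and were rounded. The TPM deposited by the authors is per length and per library, and the deposited FPKM and transcript lengths were not used. Total counts per library (1738046 to 42158454) set the precision: 3 counts equal 0.332 CPM in the median library, and floors cover counting error only.

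Tissues were compared with limma-voom (limma 3.58.1, edgeR 4.0.16, R 4.3.3) on TMM-scaled counts of genes over 1 CPM in at least 30% of libraries, with strain as a block, Benjamini-Hochberg q of 0.1 or less and at least a 2-fold change. On simulated data for liver against lung (12127 genes) the fit put 100 of 100 genes changed 2-fold and 100 of 100 changed 4-fold past the q threshold, with no fold threshold applied. Every simulated gene had the same spread and no strain effect, so this does not test members with a wide spread or few counts. The strain number pairs the tissues because the labels and study design give 1 mouse per strain. As a check, deviations of same-strain libraries correlated with a median of 0.18 (liver and lung), 0.21 (liver and kidney) and 0.22 (lung and kidney), and those of different strains with medians between -0.01 and 0. Strain correlations used rank-normalized TMM-scaled TPM with 100000 permutations (two-sided, Python 3.11.15, numpy 2.4.6, scipy 1.17.1), where 1e-05 is the smallest p they can give. Sequences came from RefSeq (GRCm38.p6) and gene positions from GENCODE vM1 (mm9), which holds a single record for 53 members. Alternatives were DESeq2 1.42.0, the edgeR quasi-likelihood test, other scalings, filters and sample sets.

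Named members were the 4 largest changes per tissue pair and direction, the 2 highest of each family per tissue, those with the same direction in all strains, the 6 largest r per tissue pair, the 3 widest BCV per tissue and those under the filter that exceeded 10 counts. Other members are named to account for all 55. Some marker lists, 3 relations with them and 1 cofactor are not reported here. Members, gene lists and tests were chosen with earlier results of these data known. Batches are not given in the labels, and p-values rest on 1 library per strain and tissue.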

Additional observations from a re-analysis of the deposited data

How the results depend on the processing

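Counts of members called were the same with no replicate block (22 in lung and 5 in liver, 13 in kidney and 8 in liver, 24 in lung and 2 in kidney), so the pairing by strain changed no count, and the edgeR quasi-likelihood test and fits of 2 tissues gave these counts too. DESeq2 gave 24 and 4, 13 and 8, and 26 and 2 in the same order, and libraries thinned to equal depth 22 and 4, 11 and 8, and 23 and 2. Without CC015, CC031 and CC041, an alternative chosen after seeing the data, they were 23 and 5, 13 and 8, and 25 and 2. Of the values for single members under alternatives, 1098 kept their direction and side of the threshold, 45 lost and 22 gained a call, and 41 turned sign. Without scaling by TMM fewer members were liver-high: against lung 2 with total counts, 2 with log2(TPM + 1) and 2 with log2(TPM + 0.1), and against kidney 4, 1 and 4. With no filter on low counts 10 were higher in liver than lung and 5 in kidney than lung. The median of all 22652 genes then stood at 0.36 for liver against lung and -0.20 for lung against kidney. Taken from those medians, and with no q applied, 5 were at least 2-fold higher in liver than lung and 5 in kidney than lung. With no fold threshold 13 were higher in liver than kidney and 5 in kidney than lung. The share of all genes called is not given for the alternatives. Their counts therefore show how the calls move and are no result about the members. Members with correlated strain values fell to 0, 2 and 0 on TPM without TMM for liver and lung, liver and kidney, and lung and kidney, and log2(TMM-scaled TPM + 1) gave 2 for liver and lung. Over all genes the positive numbers on TPM without TMM were 128, 1281 and 407, against 1120, 1961 and 1713 in the main setting. With log2(TMM-scaled TPM + 1) it was 1411 for liver and lung.

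With total counts, log2(TPM + 1) and log2(TPM + 0.1), liver against lung became, in that order, Klf9 -0.68, -0.79 and -0.79, Klf10 -0.35, -0.45 and -0.48 and Tbx20 -0.70, -0.56 and -0.72. Liver against kidney became Klf3 -0.38, -0.39 and -0.40, Klf9 -0.85, -0.87 and -0.88, Klf11 -0.60, -0.55 and -0.61, Klf13 -0.33, -0.33 and -0.35, Sox7 -0.87, -0.45 and -0.83, Tbx5 -0.58, -0.043 and -0.23, Tbx6 -0.63, -0.34 and -0.63. Klf9 in liver against kidney was -0.011 by DESeq2 and -0.019 with its size factors, Tbx5 was -0.29 by the edgeR quasi-likelihood test and -0.15 by DESeq2, and Klf2 was 0.032 with 2 tissues and 0.0036 without CC032 and CC042. Of these only Klf10 in liver against lung was past both thresholds on the TMM scale. On TPM without TMM, r turned to -0.12 for Klf3, -0.28 for Klf6 and -0.15 for Klf13 in liver and lung, and -0.075 for Klf6 in lung and kidney. With the 2 most extreme strains left out, Klf6 in liver and lung gave -0.035. Deposited counts near the floor limit Tbx5, Sox2, Sox11, Klf5, Klf8, Tbx18, Gata3 and Gata5 in liver, and in part Gata2, with 22 of 47 livers at 3 counts or fewer.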
